A study of Mus musculus with 2 samples.

Results

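The BCL2 family genes that decide cell survival or death were compared between bone marrow stem and progenitor cells of miR-146a-/- mice and of wild-type (WT) mice. The cells, called LSK, were sorted as Lin- Sca-1+ c-Kit+, a fraction in which haematopoietic stem cells and multipotent progenitors are found. The miR-146a-/- library came from 1 pool of 6 mice and the WT library from 1 pool of 12 mice, all on the C57BL/6J background and 10 to 14 weeks old, with no treatment named. Neither the animals' sex nor the way the miR-146a-/- allele was made is in the labels. In all, 10 genes were taken by name: 4 pro-survival genes (Mcl1, Bcl2, Bcl2l1 and Bcl2a1b), 2 effectors (Bak1 and Bax) and 4 BH3-only genes (Bcl2l11, Bid, Bad and Bmf), which are 10 of the 39017 genes in the count table. Of these, 9 had at least 20 counts summed over both libraries, as did 13880 genes in all, called measured below.

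Proteins of this family meet at the outer membrane of the mitochondrion. Effector proteins open pores there that release cytochrome c and start the caspase cascade, pro-survival proteins hold the effectors and the BH3-only proteins in check, and BH3-only proteins carry stress signals that tip the balance. Haematopoietic stem cells of mice depend on MCL1, whose mRNA and protein are both short-lived.

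With 1 library per genotype no difference has a replicate check, no p-value is given, and each statement compares these libraries. The miR-146a-/- library held 22231389 counts and the WT library 35069136. Intervals are 95% intervals of counting error alone, and with no molecular identifiers recorded, reads may not be independent molecules. Gm42418, a feature with ribosomal RNA sequence, took 27.2% of counts in miR-146a-/- and 2.13% in WT, so libraries were scaled by the trimmed mean of M-values (TMM), which put the median log2 ratio over the measured genes at -0.01. Total-count scaling put that median at -0.83, so each direction below holds relative to TMM. The pools also differed in sex-linked genes, with 49105 counts of Xist in miR-146a-/- and 10988 in WT, and 67 and 1263 counts of the Y-linked Kdm5d. Mir146, the gene of miR-146a, had 0 counts in both libraries and so gives no check of the genotype labels. Kit (12167 and 26003 counts in miR-146a-/- and WT), Ly6a, Cd34 and Flt3 were abundant in both libraries, while of the markers of depleted lineages Cd3e and Cd8a were at 0 in both and Cd4 was called higher, with 68 counts in miR-146a-/- and 86 in WT (log2 ratio 1.13). The 8 lineage markers summed to 61.5 normalised CPM (counts scaled to a common library size) in miR-146a-/- and 38.0 in WT, mostly from Itgam. Of 5 measured neutrophil markers 3 were lower, with summed levels of 4.91 normalised CPM in miR-146a-/- and 12.1 in WT. Of 6 monocyte markers 2 were called higher (Ly6c2 at 1.75 and F13a1 at 1.46), with a median log2 ratio of 0.67 and summed levels of 93.8 normalised CPM in miR-146a-/- and 86.3 in WT, most of it Lyz2 (-0.29). Of 3 measured T and NK cell markers 1 was called higher (Cd247 at 1.52), and Nkg7 and Lck stood at -0.12 and -0.57. The 4 measured mast cell and basophil markers were all above 0, with a median of 0.68 and none called. Of 4 measured B cell and plasma cell markers 1 was called lower, with summed levels of 261 normalised CPM in miR-146a-/- and 314 in WT. Of 4 measured stromal and endothelial markers 0 were called, with a median of 0.28. The part of other cells in the results below was not tested. In bulk RNA, fewer cells of a type and less RNA per cell cannot be told apart.

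A microRNA represses transcripts that pair with its seed, so miR-146a-5p is shown with its seed, bases 2 to 8, in capitals, beside the matches found in the family. Of the 10 genes, 2 carried a match to the whole seed in the longest annotated 3′ untranslated region: Bcl2 and Bcl2l1, with 1 each, also in capitals (AGTTCTC). The microRNA is from RefSeq (GRCm38.p6, chr11:43374435-43374456, minus strand) and the sites are from GENCODE M21 transcripts, 5′ to 3′.
miR-146a-5p: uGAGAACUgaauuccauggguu
Bcl2 site: ggagccactaaAGTTCTCttctgagctta
Bcl2l1 site: ccccacatctcAGTTCTCttggcctcaaa
That region was 5086 bases for Bcl2 and 1477 bases for Bcl2l1. A match occurred in 1672 of 12273 measured protein-coding genes (13.6%). Bcl2 and Bcl2l1 had log2 ratios of miR-146a-/- over WT of 0.15 and -0.01, and Mcl1, which had the highest ratio of the 10, had no match in its 2353 bases. A match describes letters and not a site in use.

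Of the 9 measured genes, 1 was called higher and 0 lower in miR-146a-/-, and 8 were neither. A gene was called when its whole interval lay beyond 1.5-fold, a log2 ratio of 0.58 in size. Over all measured genes 5.35% were called higher and 1.53% lower, so 1 of 9 is a statement about Mcl1 and not about the family. By total counts 0 were called higher and 5 lower (Bcl2l1, Bcl2l11, Bax, Bad and Bid), in a scaling that called 7077 of the 13880 measured genes lower. The median log2 ratio of the 9 genes under TMM was 0.07, beside -0.01 for all measured genes. Counting intervals lay above 0 for 4 of the 9, below 0 for 2 and held 0 for 3, beside 57.1% of all measured genes with an interval that left out 0. After adjustment for length and GC content 2 of the 9 lay above 0 (Mcl1 and Bak1), 2 below and 5 held 0, since Bcl2 and Bmf then held it.

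**Figure D1:**
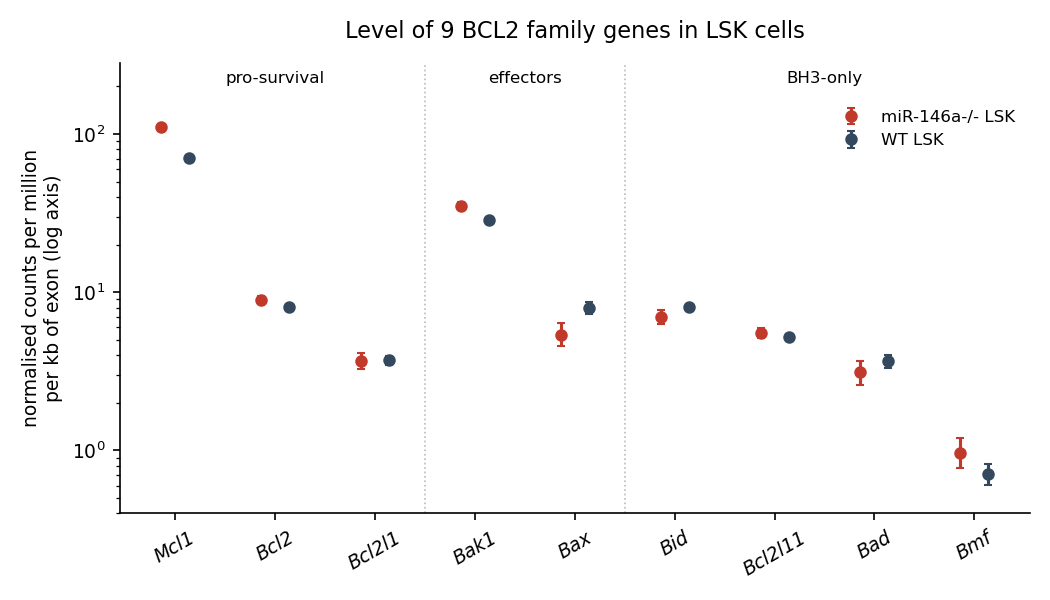
Level of the 9 measured BCL2 family genes in the miR-146a-/- library (red) and the WT library (dark blue), as normalised CPM per kilobase of exon on a log axis, with 95% counting intervals and 1 library per point. Mcl1 and Bak1 stand above the rest in both libraries, and Mcl1 reads 112 in miR-146a-/- and 71.0 in WT.

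Mcl1 was the most abundant of the 10 in both libraries. It encodes a short-lived guardian that binds BAK1 and BIM. Its counts were 6371 in miR-146a-/- and 11305 in WT, which is 381 and 243 normalised CPM. The log2 ratio was 0.65 (0.61 to 0.70), or 1.57-fold (1.52 to 1.62), so the miR-146a-/- level lay above the WT level beyond counting error. It ranked at percentile 89.1 of all measured genes. The gene (ENSMUSG00000038612) lies on chromosome 3 from 95658788 to 95663176 on the plus strand in mm10, and no other annotated gene overlaps it. The call sat just past the threshold: it ended with TMM over genes of any count (0.58) and with total counts of protein-coding genes (0.49), and by total counts of all genes the ratio was -0.17.

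Bcl2 (ENSMUSG00000057329, mm10 chromosome 1, 106538178 to 106714274, minus strand), the founding member, best known for the survival of lymphocytes, had 1364 counts in miR-146a-/- and 3417 in WT. Its level was 81.6 and 73.3 normalised CPM, a log2 ratio of 0.15 (0.06 to 0.24). Adjusted for length and GC content, the ratio was 0.02. Bcl2l1 (ENSMUSG00000007659, mm10 chromosome 2, 152780668 to 152831728, minus strand) encodes BCL-XL, best known for survival of red cell precursors and platelets. It had 282 counts in miR-146a-/- and 792 in WT, 16.9 and 17.0 normalised CPM, and a log2 ratio of -0.01 (-0.21 to 0.19). Both genes thus lay well inside the 1.5-fold limits.

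Bcl2a1b (ENSMUSG00000089929, mm10 chromosome 9, 89199209 to 89207827, plus strand) is one of several mouse gene copies for A1, a pro-survival protein that NF-kB induces in leukocytes. It had 0 counts in miR-146a-/- and 1 in WT, so no ratio is given. Its transcript is nearly a duplicate of others: of its 768 stretches of 50 bases, 79.2% also occur in transcripts of other genes, led by Bcl2a1d (442) and Gm29094 (353). Bcl2a1a and Bcl2a1d had no entry among the counted genes, and Bcl2a1c had 0 counts in both libraries. How the authors counted reads that fit several copies is not given in the sources used here, so these counts give no measure of A1.

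Of the effectors, whose products form the pores, Bak1 (ENSMUSG00000057789, mm10 chromosome 17, 27019810 to 27029009, minus strand) was the more abundant and its ratio lay above 0, while that of Bax (ENSMUSG00000003873, mm10 chromosome 7, 45461697 to 45466898, minus strand) lay below 0. By total counts both lay below 0, at -0.52 for Bak1 and -1.38 for Bax. Bak1 had 1420 counts in miR-146a-/- and 3222 in WT, 85.0 and 69.2 normalised CPM, a log2 ratio of 0.30 (0.21 to 0.39). Bax had 142 counts in miR-146a-/- and 583 in WT, 8.50 and 12.5 normalised CPM, a log2 ratio of -0.56 (-0.83 to -0.29). The Bax value was the lowest of the 9 genes, at percentile 8.96 of all measured genes, and was not called because its interval reached inside 1.5-fold. Bax has a short transcript (1100 bases at its longest), and protein-coding genes in the decile of shortest transcripts had a median log2 ratio of -0.21, against 0.20 in the decile of longest. Adjusted for length and GC content, Bax stood at -0.47 (-0.75 to -0.20) and Bak1 at 0.31 (0.22 to 0.40). Ggnbp1, on the opposite strand, overlaps Bak1 and had 48 counts in miR-146a-/- and 157 in WT. Of the 50-base stretches of Bak1 transcripts, 17.1% also occur in those of Ggnbp1 when both strands are read. For Bax, 8.51% also occur in transcripts of Gm45808.

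None of the 4 BH3-only genes was called. Bcl2l11 (ENSMUSG00000027381, mm10 chromosome 2, 128126038 to 128162547, plus strand) encodes BIM, which binds every pro-survival protein of the family. It had 741 counts in miR-146a-/- and 1962 in WT, 44.3 and 42.1 normalised CPM, a log2 ratio of 0.07 (-0.05 to 0.20). Bid (ENSMUSG00000004446, mm10 chromosome 6, 120891930 to 120916853, minus strand) links death receptors to mitochondria when caspase 8 cleaves its product. It had 413 counts in miR-146a-/- and 1329 in WT, 24.7 and 28.5 normalised CPM, a log2 ratio of -0.21 (-0.37 to -0.05). Bad (ENSMUSG00000024959, mm10 chromosome 19, 6941861 to 6951899, plus strand) encodes a protein that growth factor signalling holds in the cytosol on 14-3-3 proteins. It had 133 counts in miR-146a-/- and 437 in WT, 7.96 and 9.38 normalised CPM, and a log2 ratio of -0.24 (-0.53 to 0.05).

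Bmf (ENSMUSG00000040093, mm10 chromosome 2, 118528757 to 118549687, minus strand), whose product is tethered to the cytoskeleton through a dynein light chain, was the scarcest measured gene of the 10. It had 85 counts in miR-146a-/- and 173 in WT, 5.09 and 3.71 normalised CPM, a log2 ratio of 0.45 (0.06 to 0.84), an interval too wide to place it on either side of 1.5-fold. Bid overlaps Bcl2l13 and Bad overlaps Gpr137, in both cases on the opposite strand. Bcl2l13 had 839 counts in miR-146a-/- and 2660 in WT, and Gpr137 had 299 and 829. Of the 50-base stretches of Bid and Bad transcripts, 16.4% and 17.2% also occur in those neighbours when both strands are read. Whether counting used strand is not given in the sources used here.

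**Figure D2:**
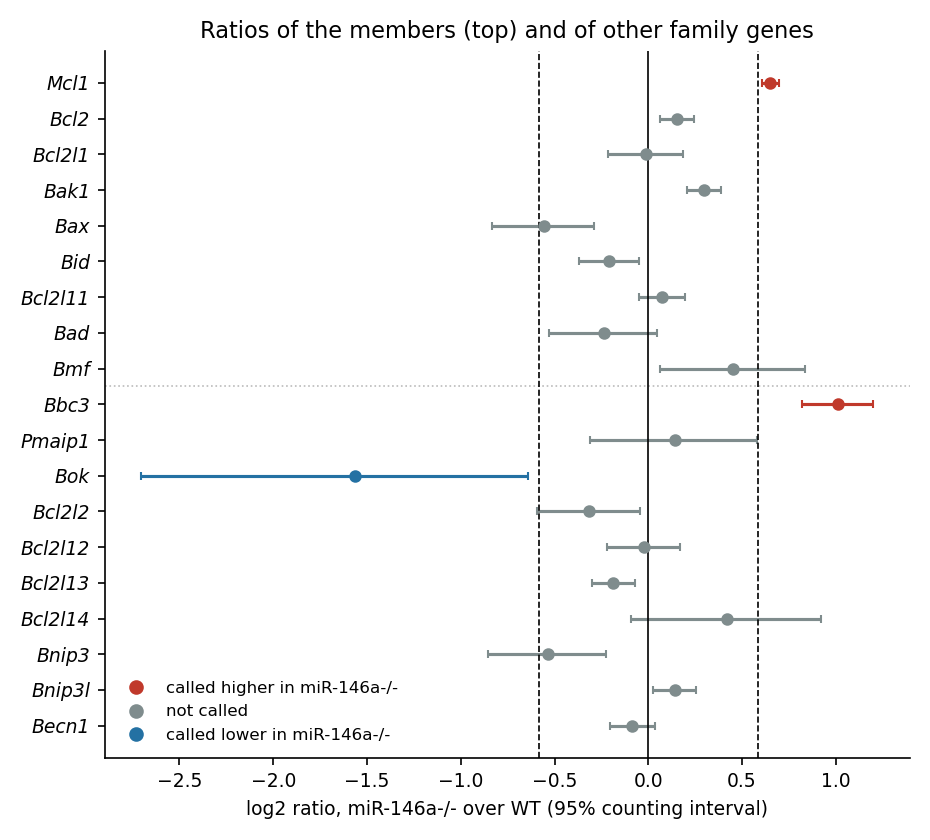
Log2 ratio of miR-146a-/- over WT for the 9 measured members (above the dotted line) and 10 other measured BCL2 family genes (below it), with 95% counting intervals, and dashed lines at 1.5-fold in either direction. Mcl1 (0.65) and Bbc3 (1.01) lie wholly beyond the upper line and Bok (-1.57) wholly beyond the lower one, while Bax (-0.56) crosses its line.

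Compared per kilobase of exon, levels spanned a wide range within each library. In miR-146a-/- the order was Mcl1 (112 normalised CPM per kilobase), Bak1 (35.3), Bcl2 (8.91), Bid (6.96), Bcl2l11 (5.52), Bax (5.39), Bcl2l1 (3.68), Bad (3.11) and Bmf (0.97). In that library Bcl2l11 and Bax did not differ beyond counting error, nor did Bcl2l1 and Bad. In WT the order was Mcl1 (71.0), Bak1 (28.7), Bid (8.04), Bcl2 (8.01), Bax (7.94), Bcl2l11 (5.24), Bcl2l1 (3.71), Bad (3.67) and Bmf (0.71). There Bid, Bcl2 and Bax overlapped their neighbours in the order, and so did Bcl2l1 and Bad. The interval of Bax overlapped those of Bcl2 and Bid in WT. In miR-146a-/- Bax lay below Bcl2, while its interval (4.54 to 6.35) still overlapped that of Bid (6.31 to 7.67). Such a narrow overlap does not show that Bax and Bid had the same level.

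Shares of the family total do not depend on how the libraries are scaled. Mcl1 made up 61.5% of the summed counts per kilobase of the 10 genes in miR-146a-/- (60.5 to 62.5%) and 51.8% in WT (51.1 to 52.5%). Bak1 was the second at 19.5% in miR-146a-/- (18.6 to 20.4%) and 20.96% in WT (20.3 to 21.6%). Bax held 2.97% in miR-146a-/- and 5.79% in WT, and Bid 3.84% and 5.86%. By role, pro-survival genes held 68.4% in miR-146a-/- and 60.4% in WT, effectors 22.4% and 26.8%, and BH3-only genes 9.13% and 12.9%. Of the pro-survival genes only Mcl1 had a higher share in miR-146a-/-. Bcl2 held 4.91% there and 5.84% in WT, and Bcl2l1 2.03% and 2.70%. A larger Mcl1 share lowers the other shares by construction, and that of Bak1 was lower although its ratio lay above 0 under TMM. Without Mcl1, the summed level of the other 9 genes was 69.8 normalised CPM per kilobase in miR-146a-/- and 66.1 in WT under TMM. Which genes carried the shift in shares depends on the scaling: by total counts Mcl1 stood at -0.17 and the median of the 9 measured genes at -0.75. The size of the Mcl1 share depended on the length used, and by coding length it was 47.4% in miR-146a-/- and 37.9% in WT.

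**Figure D3:**
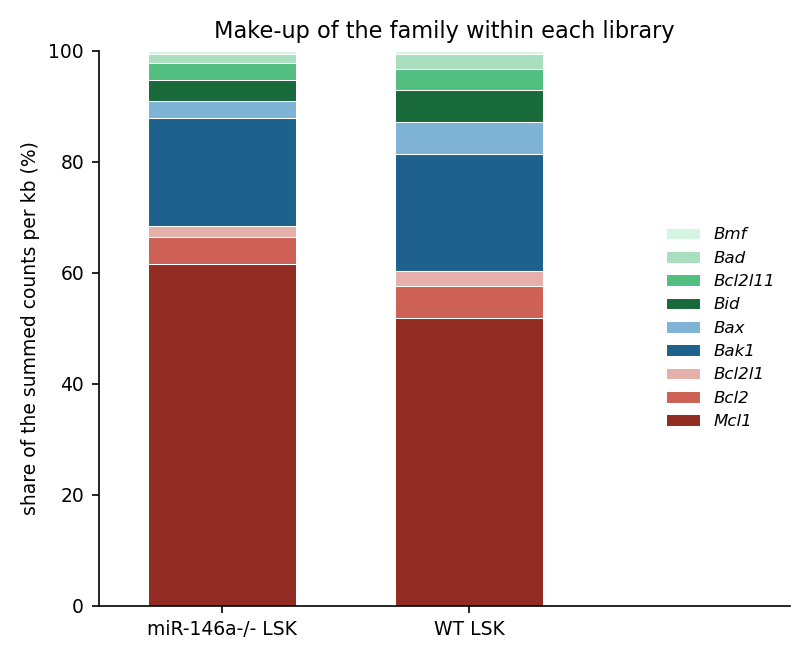
Share of each gene in the summed counts per kilobase of exon of the 10 BCL2 family genes, for the miR-146a-/- library and the WT library, with reds for pro-survival genes, blues for effectors and greens for BH3-only genes. Mcl1 takes 61.5% in miR-146a-/- and 51.8% in WT, and Bcl2a1b, with 0 and 1 counts, is too small to draw.

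Ratios between counts of 2 genes of one library are also free of scaling, though not of transcript length and GC content. Mcl1 was compared with each of the 6 measured effector and BH3-only genes. For 5 of them the count ratio was higher in miR-146a-/- beyond counting error. Mcl1 had the highest log2 ratio of the 9 measured genes, so all 6 changes lie above 1 by construction. They restate the single-gene ratios and are no separate support. The largest change was against Bax, the gene with the lowest log2 ratio of the 9. There were 44.9 Mcl1 counts per Bax count in miR-146a-/- and 19.4 in WT, a 2.31-fold change (1.92 to 2.81). Adjusted for length and GC content, that change was 2.18-fold (1.80 to 2.64). Against Bcl2l11 the ratio was 8.60 in miR-146a-/- and 5.76 in WT, 1.49-fold (1.36 to 1.63), and against Bak1 it was 4.49 and 3.51, 1.28-fold (1.19 to 1.37). Against Bmf the change was 1.15-fold (0.88 to 1.51), an interval that holds both no change and a 1.5-fold difference.

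The other survival genes gave no single direction. For Bcl2, 3 of 6 such ratios were higher, 1 was lower and 2 held no change, and for Bcl2l1 the counts were 1, 2 and 3. Adjusted for length and GC content, those counts were 2, 1 and 3 for Bcl2 and 1, 1 and 4 for Bcl2l1, since Bcl2 to Bad (1.15-fold, 0.93 to 1.42) and Bcl2l1 to Bmf (0.77-fold, 0.57 to 1.04) then held no change. For Mcl1 the counts were 5, 0 and 1 with and without the adjustment. The commonly used ratio of Bcl2 to Bax was 9.61 in miR-146a-/- and 5.86 in WT, a 1.64-fold change (1.35 to 2.0). Adjusted for length and GC content, that change was 1.41-fold (1.16 to 1.72). Against Bak1, in contrast, Bcl2 stood at 0.96 in miR-146a-/- and 1.06 in WT, 0.91-fold (0.83 to 0.99). The choice of effector therefore set the direction of the Bcl2 ratio. Within the effectors, Bak1 to Bax was 10.0 in miR-146a-/- and 5.53 in WT, 1.81-fold (1.49 to 2.21), and 1.72-fold (1.41 to 2.10) after that adjustment.

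**Figure D4:**
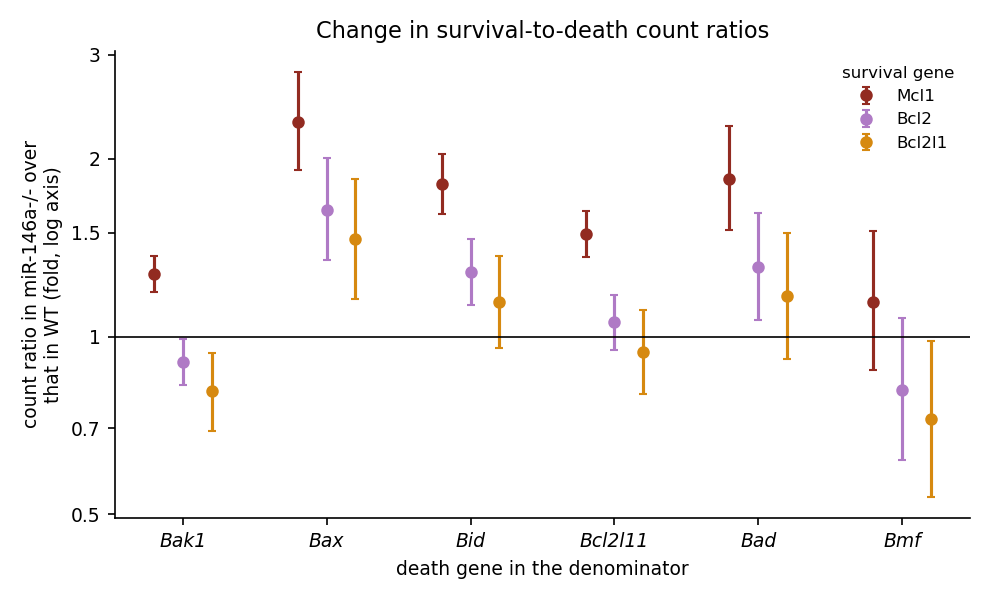
Count ratio of a survival gene (Mcl1, Bcl2 or Bcl2l1) to each of 6 death genes in miR-146a-/-, divided by the same ratio in WT, on a log axis with exact 95% intervals of counting error. All 6 Mcl1 points lie above 1 by construction, since Mcl1 had the highest log2 ratio of the measured genes. The point against Bax reaches 2.31, while Bcl2 and Bcl2l1 fall below 1 against Bak1 and Bmf.

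Of 17 other BCL2 family genes, 15 had an entry among the counted genes and 10 were measured. Of these 10, 1 was called higher and 1 lower, with a median log2 ratio of -0.05. Bbc3 encodes PUMA, a BH3-only protein that p53 induces. It was higher, with 396 counts in miR-146a-/- and 548 in WT, a log2 ratio of 1.01 (0.82 to 1.20). Per kilobase of exon its level was 11.2 normalised CPM in miR-146a-/- and 5.54 in WT, so it exceeded Bcl2l11 in miR-146a-/- but not beyond counting error in WT. The count ratio of Bbc3 to Mcl1 was also higher in miR-146a-/-, by 1.28-fold (1.12 to 1.47). A pro-survival gene and a BH3-only gene of the family were thus both called higher, although Bbc3 fell short of the call by total counts (0.19).

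Bok, which encodes an effector-like protein, was lower, with 10 counts in miR-146a-/- and 84 in WT, a log2 ratio of -1.57 (-2.70 to -0.64). This call rested on few counts and ended after adjustment for length and GC content, where the ratio was -1.51. Pmaip1, encoding NOXA, the BH3-only partner of MCL1, was at 0.14 (-0.31 to 0.58), and Bcl2l2, encoding the pro-survival protein BCL-W, at -0.32 (-0.59 to -0.05). The other measured genes were Bcl2l14 (0.42), the mitophagy receptors Bnip3l (0.14) and Bnip3 (-0.53), Bcl2l12 (-0.02), the autophagy gene Becn1 (-0.09) and Bcl2l13 (-0.19), none of them called. Hrk had 0 counts in both libraries, and Bcl2l10, Bik and Bcl2l15 had at most 2 in either.

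Downstream of the mitochondrion, 0 of 11 genes for the apoptosome, caspases and released proteins were called higher and 1 was lower. The median log2 ratio of the 11 was -0.35, with 8 of 11 below 0, beside a median of -0.01 over all measured genes. Adjusted for length and GC content, these medians were -0.31 and -0.03. The lower gene was Aifm1, which encodes a mitochondrial flavoprotein, at -0.89 (-1.10 to -0.68). Endog (-0.70), which encodes a mitochondrial nuclease, and Apaf1 (0.29), which encodes the apoptosome scaffold, were not called. Among 5 inhibitors of apoptosis, Birc3, which encodes the NF-kB-induced ubiquitin ligase cIAP2, was higher, with 963 counts in miR-146a-/- and 1547 in WT and a log2 ratio of 0.79 (0.68 to 0.91). By total counts the Birc3 ratio was -0.03, and by total counts of protein-coding genes it was 0.63 and no longer called. The other 4 were not called: Birc6 was at 0.27, Birc2 at 0.01, Xiap, a direct caspase inhibitor, at -0.04, and Birc5 at -0.57. Birc6 is very long, with 25772 exonic bases, and adjusted for length and GC content it stood at -0.19. The median of the 5 was 0.01, and -0.07 with that adjustment.

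In the death receptor pathway 0 of 8 measured genes were called and the median was 0.16. Its ends were the TRAIL receptor gene Tnfrsf10b (0.46), Tnfrsf1a (0.21), the kinase gene Ripk3 (-0.32) and the adaptor gene Tradd (-0.45). Of 16 genes for binding partners and turnover enzymes of BCL2 family proteins, 0 were called and the median was -0.18. By total counts 11 of these 16 were called lower, with a median of -1.005, as were 3 of the 8 death receptor genes, 9 of the 11 apoptosome and caspase genes, 3 of the 5 inhibitors and 6 of the 10 other family genes. Huwe1, a ubiquitin ligase that marks MCL1 for destruction, was the highest at 0.57 (0.54 to 0.60) and Gsk3b, a kinase that phosphorylates MCL1, was at 0.39. Huwe1 has a very long transcript, and adjusted for length and GC content it stood at 0.13 and Gsk3b at 0.22. The lowest were the channel genes Vdac3 (-0.68) and Vdac1 (-0.44).

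Under TMM, Mcl1 moved in the same direction as the immediate early genes, whose transcription starts rapidly after growth factor or stress signals. All 15 listed were called higher in miR-146a-/-, beside 5.35% of all measured genes. Their median log2 ratio was 2.12, with summed levels of 18901 normalised CPM in miR-146a-/- and 4521 in WT. The list was chosen with earlier results of these data known, so that count is no separate support. Each of the 15 had a higher ratio than Mcl1, and the lowest was Junb at 1.29. By total counts 14 of the 15 were called higher, with a median of 1.30, while Mcl1 stood below 0 at -0.17. Their part in the Mcl1 difference was not tested.

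The stretch around the RefSeq start of Mcl1 is shown because immediate early promoters often carry the CArG box, the binding sequence of serum response factor, and the core of the cyclic AMP response element, TGACG. It runs from 80 bases before the start to 25 bases from the start on (GRCm38.p6, chr3:95658641-95658745, plus strand). Capitals mark a CArG box with 1 mismatch and a TGACG read on the other strand.
Mcl1 start region: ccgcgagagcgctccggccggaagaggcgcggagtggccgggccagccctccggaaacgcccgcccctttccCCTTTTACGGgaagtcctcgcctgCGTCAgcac
Over windows of 250 bases before to 50 after a start, both strands, 8 of 12 immediate early genes with an entry held a CArG box with at most 1 mismatch, as did 2 of the 10 BCL2 family genes (Mcl1 and Bmf) and 19.4% of 9735 measured protein-coding genes. An exact CArG box was in 2 of the 12, 0 of the 10 and 1.54% of measured protein-coding genes. A kB site, the binding sequence of NF-kB, was in 4 of the 12, 2 of the 10 (Bcl2l1 and Bmf) and 6.24% of measured protein-coding genes. A TGACG occurred in 9 of the 12, in 4 of the 10 (Bcl2, Mcl1, Bcl2a1b and Bmf) and in 35.4% of measured protein-coding genes. These searches were chosen after the Mcl1 value was seen. The 2 kinds of match marked in Mcl1, a CArG box with 1 mismatch and a TGACG, are common. Exact CArG boxes and kB sites are less so, but no use of any match was tested, so all describe letters only.

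**Figure D5:**
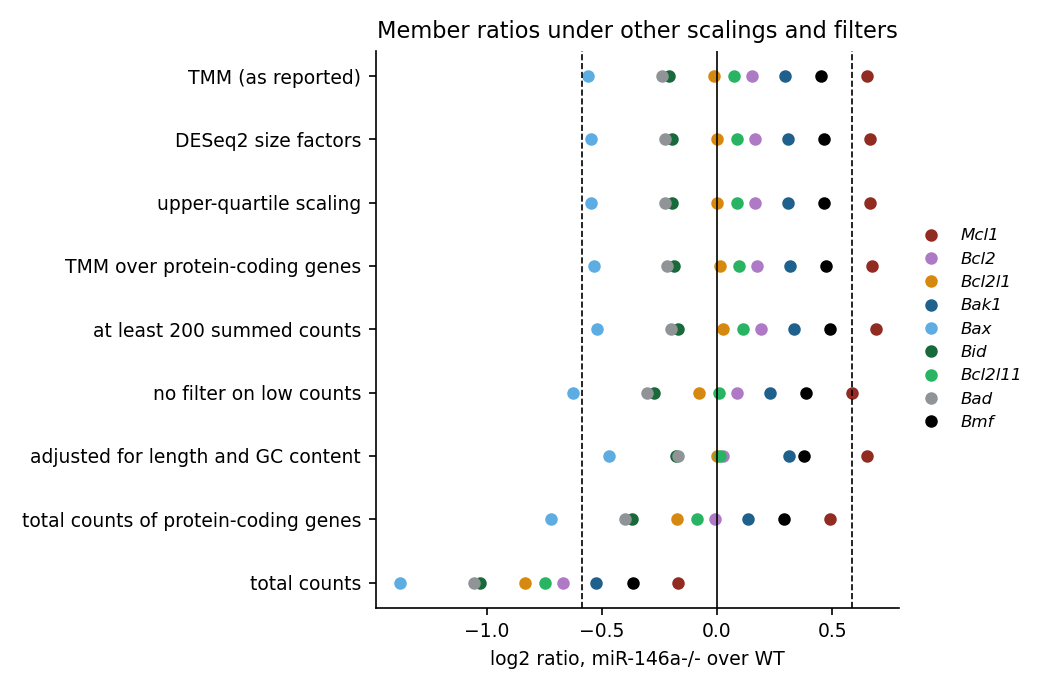
Log2 ratio of miR-146a-/- over WT of the 9 measured genes under TMM scaling as reported (top row) and under 8 other scalings, filters or adjustments, with dashed lines at 1.5-fold in either direction. Bax is lowest and Mcl1 highest in each of these rows, while total counts shift all 9 points below 0, with Mcl1 at -0.17 and Bax at -1.38.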

How the data were processed

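Ribodepleted total RNA of sorted LSK cells was sequenced, per the labels. What the authors deposited and what was used here is 1 table of raw, whole-number counts of reads per Ensembl gene. Per the file headers, splice junctions had been placed on the genome and duplicates flagged. The counting program, its use of strand and flagged duplicates, and the annotation it used were not given in the sources used here. STAR 2.5.3a, Salmon 0.9.0 and mm10 appear in the submitters' processing notes with no roles.

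Symbols, positions and lengths came from GENCODE M21, which named 37693 of 39017 identifiers. TMM scaling factors came from edgeR 4.0.16 under R 4.3.3, using genes with at least 20 summed counts. Log2 ratios used a prior count of 0.5, and their intervals convert exact Clopper-Pearson intervals of the count share. Share intervals used the delta method, and intervals of count ratios between genes are exact conditional odds ratio intervals (scipy 1.17.1). The TMM scaling, log2 ratios and their intervals were tested on simulated Poisson counts with the same gene shares in both libraries, apart from genes changed by known folds. The simulation held no Gm42418 imbalance, length trend or added spread, so it cannot check the steps under those. Quasi-likelihood tests need replicates and were not run. The adjustment for length and GC content subtracted a cubic least-squares surface over measured protein-coding genes. DESeq2 1.42.0 gave alternative size factors.

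Members and lists were chosen with earlier results of these data known. By rule the text names all 10 members, each measured gene among the other BCL2 family genes and, in every other apoptosis list, called genes and the 2 highest and 2 lowest. Birc2 was added after its value was seen. Some genes that this rule would name are not reported here.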

Additional observations from a re-analysis of the deposited data

How the results depend on the processing

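DESeq2 size factors, upper-quartile scaling and TMM over protein-coding genes left the calls of the 9 genes and of Bbc3, Bok, Birc3 and Aifm1 as reported. A prior count of 5 enters the ratio but not its interval, so it could not change a call and does not check the calls. By total counts, members called higher and lower became 0 and 5, and all genes 140 and 7077, from 742 and 212; Mcl1 reversed to -0.17 and Birc3 to -0.026, and Bbc3 (0.19) was no longer called. Total counts of protein-coding genes, added after the data were seen, called 0 members and 496 genes higher and 574 genes lower, and ended the Birc3 call (0.63). With no filter, 0 members were higher and 322 genes lower; with at least 200 counts, 491 genes were higher and 130 lower. Beyond 2-fold, stricter by construction, 0 members and 294 genes were higher and 42 lower. A change of scaling moves all log2 ratios by a nearly common amount. Mcl1 stood 0.66 above the median of all measured genes both under TMM and by total counts. For the other settings the cause was not tested. Adjusted for length and GC content, an alternative added after the data were seen, 1 Bcl2l1 count ratio was lower, against 2 as reported. The Mcl1 share of the family was 56.3% in miR-146a-/- and 45.7% in WT by longest transcript, and 47.4% and 37.9% by coding length. Only counting error is covered, and Bok and Bmf are limited by depth. No paired analysis was possible because each genotype had 1 library.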
